A study of Mus musculus with 8 samples.

Results

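The 35 genes described here make sterols and fatty acids, regulate that synthesis, or carry cholesterol out of the cell. They were listed by name for their known roles, with no threshold on a measured value, and are 35 of the 20170 genes in the deposited count matrix. Earlier results of these data were known when the list was chosen. In order of role they are 18 enzymes of sterol synthesis, 6 genes of the SREBP system (Insig1, Insig2, Scap, Srebf1, Srebf2 and Stard4), 8 enzymes of fatty acid synthesis and 3 genes of cholesterol efflux and LXR response (Abca1, Abcg1 and Mylip). The data are single-cell RNA-seq of splenic T cells from B6 mice aged 8 to 12 weeks. T cells came from WT mice or from Sdha fl/fl CD4-Cre mice (SDHA-KO), in which Cre driven by the Cd4 promoter deletes Sdha, the flavoprotein subunit of succinate dehydrogenase (complex II of the respiratory chain). Both genotypes were taken unstimulated or after 48 h of culture with antibodies to CD3 (5 μg/mL) and CD28 (2.5 μg/mL), which stimulate the T cell receptor and its costimulatory receptor. Each of these 4 groups had 2 libraries, 12846 cells in all, and each cell carried the authors' class, CD4 or CD8, so that UMIs (unique molecules of RNA) could be summed per library and class. The labels do not say whether the 2 libraries of a group came from different mice, and the p-values therefore measure only the spread between these libraries.

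Cells keep their sterol level by a feedback loop. SREBP transcription factors, made from Srebf1 and Srebf2, sit in the membrane of the endoplasmic reticulum bound to the escort protein SCAP, and INSIG proteins hold SCAP there while sterol is plentiful. When sterol falls, SCAP carries SREBP to the Golgi, where it is cut, and the released part enters the nucleus and turns on genes with sterol regulatory elements, mainly for sterols (SREBP-2) and fatty acids (SREBP-1). Excess sterol acts the other way through LXR receptors, which raise efflux genes such as Abca1 and Abcg1. T cells that prepare to divide are known to raise lipid synthesis, since new membrane must be made.

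Promoters of 27 of the 35 genes were in the RefSeq table for GRCm38.p6 (Sqle, Stard4, Abcg1, Fdft1, Scd1, Fads1, Scd2 and Fdps were not matched). The 250 bases before each start were searched on both strands for CACNCCAC, a short form of the sterol regulatory element, for the CCAAT box, which is bound by NF-Y, a known partner of SREBP, and for the palindrome CACGTG, an E-box. CACNCCAC was found in 3 of the 27 genes (Acat2, Hmgcs1 and Insig1), against 6.05% of all genes and 5.29% of all 32851 promoters. CCAAT was found in 20 of the 27, against 37.49% of all genes and 33.85% of promoters, and in 14 of the 15 sterol synthesis genes that were matched. CACGTG was found in 6 of the 27 (Hsd17b7, Sc5d, Dhcr7, Insig1, Scap and Abca1), against 6.86% of genes and 6.02% of promoters. These are descriptions of letters, not sites shown to be bound. The 6 promoters below are shown because the results turn on these genes: Hmgcs1, Insig1, Lss and Msmo1 were far lower in stimulated SDHA-KO cells, Ebp was not, and Mylip fell on stimulation. Capitals mark the searched motifs on either strand (CCAAT or ATTGG, CACNCCAC or GTGGNGTG, CACGTG), and each run ends at the base before the start. They lie at chr13:119690101-119690350 (plus strand) for Hmgcs1, chr5:28071162-28071411 (plus strand) for Insig1, chr10:76531355-76531604 (plus strand) for Lss, chr8:64733579-64733828 (minus strand) for Msmo1, chrX:8193513-8193762 (minus strand) for Ebp and chr13:45389492-45389741 (plus strand) for Mylip.
Hmgcs1: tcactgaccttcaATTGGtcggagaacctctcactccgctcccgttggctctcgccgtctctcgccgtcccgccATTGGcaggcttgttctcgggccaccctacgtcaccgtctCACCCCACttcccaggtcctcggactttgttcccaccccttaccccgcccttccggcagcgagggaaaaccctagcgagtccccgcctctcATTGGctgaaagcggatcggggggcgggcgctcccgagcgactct
Insig1: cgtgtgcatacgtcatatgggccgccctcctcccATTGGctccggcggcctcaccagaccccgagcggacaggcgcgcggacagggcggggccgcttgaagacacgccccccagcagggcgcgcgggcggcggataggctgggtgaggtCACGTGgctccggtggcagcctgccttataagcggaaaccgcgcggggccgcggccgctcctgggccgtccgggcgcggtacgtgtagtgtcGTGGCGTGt
Lss: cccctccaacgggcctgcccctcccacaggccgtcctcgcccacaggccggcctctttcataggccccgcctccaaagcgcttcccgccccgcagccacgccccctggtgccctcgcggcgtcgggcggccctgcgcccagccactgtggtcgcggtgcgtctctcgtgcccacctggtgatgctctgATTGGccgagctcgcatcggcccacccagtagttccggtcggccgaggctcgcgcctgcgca
Msmo1: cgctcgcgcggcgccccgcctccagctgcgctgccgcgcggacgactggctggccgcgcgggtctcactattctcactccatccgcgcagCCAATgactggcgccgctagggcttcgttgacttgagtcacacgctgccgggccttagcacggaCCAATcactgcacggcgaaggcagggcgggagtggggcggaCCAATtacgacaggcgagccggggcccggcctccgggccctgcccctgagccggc
Ebp: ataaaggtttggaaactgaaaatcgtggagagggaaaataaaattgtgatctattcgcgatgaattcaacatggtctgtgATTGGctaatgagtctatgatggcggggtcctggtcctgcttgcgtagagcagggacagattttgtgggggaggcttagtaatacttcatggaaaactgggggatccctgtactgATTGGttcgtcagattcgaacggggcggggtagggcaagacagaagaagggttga
Mylip: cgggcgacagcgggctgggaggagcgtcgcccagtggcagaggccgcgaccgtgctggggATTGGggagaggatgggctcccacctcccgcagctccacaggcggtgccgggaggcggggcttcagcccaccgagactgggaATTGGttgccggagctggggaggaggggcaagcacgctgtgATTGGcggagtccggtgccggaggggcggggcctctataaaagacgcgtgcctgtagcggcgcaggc
The Hmgcs1 window holds 3 CCAAT boxes and 1 CACNCCAC, which starts 136 bases before the start site. The Insig1 window holds 1 match to each of the 3 motifs. Ebp, whose level did not follow the other sterol genes, has 2 CCAAT boxes, and so the letters searched here do not set it apart from Lss, which has 1, or from Msmo1, which has 3. Mylip, which moved opposite to the sterol genes on stimulation, has 3 CCAAT boxes as well.

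Depth and labels were checked before the genes were compared. Summed UMIs per library and class ran from 3640136 to 34087903, over 325 to 1315 cells, so that at 10 CPM (UMIs per 1000000 UMIs) the smallest sum holds 67.8 UMIs in the CD4 class and 36.4 in the CD8 class, a counting error of 12.1% and 16.6%. Levels are given as CPM after TMM scaling, and changes as log2 fold changes ± SE from edgeR's quasi-likelihood test, called at an adjusted p below 0.05 over all genes tested (14264 in the CD4 class and 13095 in the CD8 class). All 35 genes passed the filter on low counts in both classes. Cd4 lay at 98.2 to 631 CPM of library totals in the CD4 class and at 1.20 to 13.7 in the CD8 class, and Cd8a with Cd8b1 at 211 to 1180 in the CD8 class and at 15.6 to 49.7 in the CD4 class. Both differed with genotype. Cd4 in unstimulated CD4 cells was at 154.7 to 154.8 in WT and 550 to 631 in SDHA-KO. After stimulation it was at 98.2 to 101 and 152 to 158. Cd8a with Cd8b1 in unstimulated CD8 cells was at 1144 to 1180 in WT and 885 to 948 in SDHA-KO. After stimulation they were at 464 to 499 and 211 to 273. The targeted gene Sdha was at 100.5 and 100.0 CPM in unstimulated WT, 49.8 and 49.3 in unstimulated SDHA-KO, 73.9 and 73.01 in stimulated WT and 26.5 and 26.4 in stimulated SDHA-KO libraries of the CD4 class. In CD8 cells, Sdha was at 91.3 and 95.6 CPM in unstimulated WT, 38.9 and 37.6 in unstimulated SDHA-KO, 76.1 and 74.8 in stimulated WT and 53.2 and 50.4 in stimulated SDHA-KO libraries. Sdha was lower in all 8 SDHA-KO sums than in the WT sums of the same state and class, but by less in stimulated CD8 cells (−0.54 ± 0.0704) than in stimulated CD4 cells (−1.47 ± 0.0679).

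Several other measures differed between the genotypes or between single libraries. A UMI of Trdc, the constant gene of the delta chain of gamma-delta T cells, was present in 59.1% and 56.1% of cells in the stimulated SDHA-KO CD8 class, against 3.67% and 4.92% in stimulated WT, and in 19.7% and 15.2% of unstimulated SDHA-KO CD8 cells against 3.90% and 3.41% in WT. Stimulated SDHA-KO CD8 cells were the deeper, with a median of 30662 and 29912 UMIs against 13152 and 13265 in WT. With each cell thinned to 5000 UMIs, the shares after stimulation were 39.6% and 39.0% against 2.02% and 2.89%. Before stimulation they were 17.8% and 12.3% against 2.89% and 2.37%. The 6 gamma-delta genes listed as markers summed to 256 to 262 CPM of library totals in stimulated SDHA-KO CD8 cells and 18.5 to 21.8 in stimulated WT, and to 18.1 to 23.2 against 5.70 to 6.60 in the CD4 class. B cell markers stood at 345 CPM in stimulated SDHA-KO CD8 replicate 1, at 64.1 in replicate 2 and at 27.8 to 176 in the remaining sums. The myeloid list stood at 38.9 CPM in 1 unstimulated SDHA-KO CD4 library and at most 6.75 in the other 15 sums. In stimulated CD8 cells both SDHA-KO values of the B cell list lay above those of WT (53.7 and 49.98). In unstimulated CD8 cells both lay below (130 and 136, against 157 and 176 in WT). The myeloid list was higher in both stimulated SDHA-KO libraries of each class, at 4.82 to 6.75 against 2.10 to 3.50 in WT. The NK list reached at most 7.14 CPM and the erythroid list at most 2.47. The median share of mitochondrial UMIs per cell was 15.9% and 14.9% in stimulated WT CD4 cells against 1.79% and 1.77% in SDHA-KO, and 19.0% and 16.9% against 3.22% and 3.43% in CD8 cells. For these reasons each count below was also made in cells with under 10% mitochondrial UMIs and in a strict class, which keeps CD4 cells with a Cd4 UMI and no Cd8a, Cd8b1 or Trdc UMI, and CD8 cells with a Cd8a or Cd8b1 UMI and no Cd4 or Trdc UMI. In strict CD8 cells Sdha was at 33.4 and 30.7 CPM of library totals in stimulated SDHA-KO, against 90.1 and 85.3 in WT.

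WT cells raised nearly the whole lipid synthesis list on stimulation. In each class 31 of the 35 genes were called higher and 3 lower after 48 h, where 36.2% and 30.1% of all genes were called higher and lower in the CD4 class, and 35.5% and 30.3% in the CD8 class. All 18 sterol synthesis genes rose in both classes (median log2 fold change 2.09 in CD4 and 2.38 in CD8, with medians of 0.08 and 0.09 over all genes), as did all 8 fatty acid genes (2.45 and 2.20). The 3 efflux genes all fell (−2.50 and −3.54), and Insig2 was the 1 gene not called. Summed over the 18 sterol genes, UMIs went from 2.40 ± 0.0057 to 15.3 ± 0.307 per 10000 in WT CD4 cells and from 1.67 ± 0.158 to 14.1 ± 0.0969 in WT CD8 cells (SD, n = 2 libraries). Without composition scaling, the median of all genes moves by 0.22 in this comparison in the CD4 class and by 0.48 in the CD8 class (log2), and the folds here are relative to the scaled median. A sum over cells cannot tell fewer expressing cells from less RNA per cell, and this holds for all the sums below.

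SDHA-KO cells were much lower than WT for the same genes after stimulation. In the CD4 class 30 of the 35 genes were called lower and 2 higher, where 20.5% and 22.7% of all genes were. In the CD8 class 27 were called lower and 2 higher, where 23.5% and 26.8% of all genes were. The sterol genes had a median log2 fold change of −1.52 in CD4 cells and −1.06 in CD8 cells, the SREBP genes −0.91 and −0.68 and the fatty acid genes −1.37 and −0.63, beside medians of −0.0009 and −0.01 over all genes. Sterol UMIs per 10000 stood at 5.52 ± 0.284 in stimulated SDHA-KO CD4 cells and 7.59 ± 0.0608 in CD8 cells (SD, n = 2), against 15.3 and 14.1 in WT. Summed fatty acid UMIs were 2.37 ± 0.0389 against 5.72 ± 0.0255 in WT CD4 cells, and 4.02 ± 0.341 against 6.84 ± 0.0368 in CD8 cells. Before stimulation the order was turned for the sterol sums, with 2.80 ± 0.0474 in SDHA-KO against 2.40 ± 0.0057 in WT CD4 cells and 2.16 ± 0.0276 against 1.67 ± 0.158 in CD8 cells, and the libraries did not overlap.

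**Figure D1:**
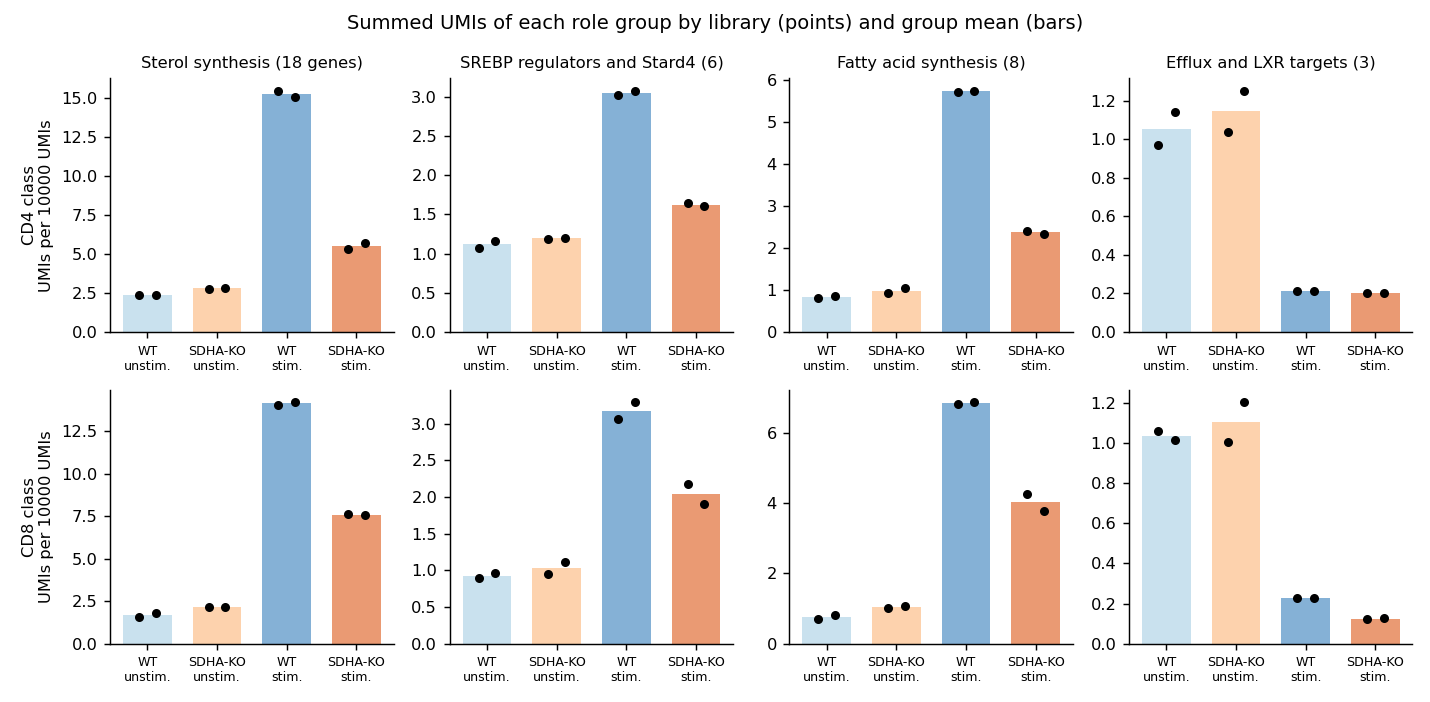
UMIs of each role group summed per library and divided by all UMIs of that library and class, per 10000 (y axis), with CD4 cells in the upper row and CD8 cells in the lower row; points are the 2 libraries of a group and bars their mean. Sterol synthesis rose from 2.40 to 15.3 in WT CD4 cells and from 2.80 to 5.52 in SDHA-KO CD4 cells, while the efflux group fell in both genotypes.

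Among the first enzymes of the sterol pathway, Hmgcs1 makes HMG-CoA. It was at 17.6 and 19.5 CPM in unstimulated WT, 23.6 and 26.1 in unstimulated SDHA-KO, 114 and 109.6 in stimulated WT and 27.1 and 28.4 in stimulated SDHA-KO libraries of the CD4 class. CD8 cells had Hmgcs1 at 13.98 and 16.1 CPM in unstimulated WT, 20.97 and 21.6 in unstimulated SDHA-KO, 94.2 and 101 in stimulated WT and 39.8 and 36.9 in stimulated SDHA-KO libraries. Stimulated SDHA-KO cells were thus 4.02-fold below WT in CD4 and 2.54-fold below in CD8 (−2.01 ± 0.0786 and −1.34 ± 0.0810, adjusted p by edgeR 3.96e-08 and 9.29e-07). On stimulation Hmgcs1 changed by 0.16 ± 0.0888 in SDHA-KO CD4 cells (95% interval −0.04 to 0.35), which was not called. Acat2, the thiolase that precedes HMG-CoA, was at 12.02 and 12.3 CPM in unstimulated WT, 14.4 and 12.4 in unstimulated SDHA-KO, 41.1 and 44.9 in stimulated WT and 12.1 and 12.7 in stimulated SDHA-KO libraries of the CD4 class. The CD8 class had Acat2 at 11.7 and 10.2 CPM in unstimulated WT, 13.2 and 11.5 in unstimulated SDHA-KO, 40.1 and 39.5 in stimulated WT and 18.7 and 19.7 in stimulated SDHA-KO libraries. The difference between genotypes after stimulation was −1.79 ± 0.0991 in CD4 and −1.05 ± 0.0898 in CD8. Reads of Acat2 can be shared with Acat3, a gene of high similarity in the mouse, and how the authors' counting split them is not given in the sources used here. Mvd, the decarboxylase that makes isopentenyl diphosphate, was at 11.1 and 6.89 CPM in unstimulated WT, 10.3 and 9.15 in unstimulated SDHA-KO, 31.9 and 34.6 in stimulated WT and 6.99 and 6.03 in stimulated SDHA-KO libraries of the CD4 class. Mvd in the CD8 class was at 8.28 and 8.69 CPM in unstimulated WT, 8.39 and 9.17 in unstimulated SDHA-KO, 26.4 and 27.7 in stimulated WT and 13.8 and 11.9 in stimulated SDHA-KO libraries. It fell by 5.12-fold in stimulated SDHA-KO CD4 cells relative to WT and by 2.09-fold in CD8 cells, with no overlap of libraries in either.

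Fdps, which makes farnesyl diphosphate, the branch point to sterols and to prenyl groups, was at 33.2 and 34.6 CPM in unstimulated WT, 38.3 and 40.4 in unstimulated SDHA-KO, 339 and 351 in stimulated WT and 85.7 and 94.99 in stimulated SDHA-KO libraries of the CD4 class. The levels of Fdps in CD8 cells were 22.3 and 25.2 CPM in unstimulated WT, 31.1 and 31.4 in unstimulated SDHA-KO, 254 and 275 in stimulated WT and 124 and 128 in stimulated SDHA-KO libraries. Fdps rose on stimulation in SDHA-KO CD4 cells (1.20 ± 0.0820), though by less than in WT (3.35 ± 0.0885). Fdft1, squalene synthase, commits carbon to sterol, and was at 14.3 and 10.8 CPM in unstimulated WT, 13.02 and 13.02 in unstimulated SDHA-KO, 49.1 and 52.4 in stimulated WT and 21.7 and 19.3 in stimulated SDHA-KO libraries of the CD4 class. Among CD8 libraries Fdft1 was at 6.85 and 9.58 CPM in unstimulated WT, 6.89 and 9.76 in unstimulated SDHA-KO, 42.05 and 42.9 in stimulated WT and 19.9 and 19.97 in stimulated SDHA-KO libraries. SDHA-KO was below WT after stimulation by −1.31 ± 0.105 in CD4 and −1.09 ± 0.105 in CD8. Idi1, which interconverts the isoprenoid units, did not follow the rest in the CD8 class. There it was at 8.28 and 11.6 CPM in unstimulated WT, 10.8 and 12.4 in unstimulated SDHA-KO, 100.5 and 106 in stimulated WT and 109 and 113 in stimulated SDHA-KO libraries, and the genotypes differed by 0.10 ± 0.0796 after stimulation (95% interval −0.07 to 0.28, adjusted p by edgeR 0.303). In cells with under 10% mitochondrial UMIs the sign turned and the CD8 difference was called (−0.29). In the CD4 class Idi1 was at 12.2 and 17.4 CPM in unstimulated WT, 20.3 and 18.3 in unstimulated SDHA-KO, 142 and 136 in stimulated WT and 70.8 and 102 in stimulated SDHA-KO libraries, and it was called lower in SDHA-KO (−0.69 ± 0.144, and −1.05 in cells with under 10% mitochondrial UMIs).

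Lss closes squalene epoxide into lanosterol, the first sterol, and had the largest fall of the 18 sterol genes in stimulated CD4 cells. It was at 2.24 and 2.25 CPM in unstimulated WT, 5.32 and 5.28 in unstimulated SDHA-KO, 29.2 and 30.1 in stimulated WT and 4.46 and 5.38 in stimulated SDHA-KO libraries of the CD4 class. In CD8 cells, Lss was at 1.43 and 2.23 CPM in unstimulated WT, 2.40 and 5.92 in unstimulated SDHA-KO, 23.7 and 25.04 in stimulated WT and 12.3 and 10.8 in stimulated SDHA-KO libraries. Stimulated WT CD4 libraries were 13.2-fold above unstimulated ones, whereas stimulated SDHA-KO CD4 libraries overlapped the unstimulated ones and the fitted change was not called (−0.10 ± 0.153, 95% interval −0.44 to 0.23). Relative to stimulated WT, Lss was 6.01-fold lower in SDHA-KO CD4 cells (−2.59 ± 0.119) and 2.10-fold lower in CD8 cells (−1.07 ± 0.147). Cyp51, which removes a methyl group from lanosterol, was at 17.3 and 15.1 CPM in unstimulated WT, 24.2 and 19.9 in unstimulated SDHA-KO, 183 and 180.2 in stimulated WT and 48.6 and 47.2 in stimulated SDHA-KO libraries of the CD4 class. CD8 cells had Cyp51 at 6.85 and 9.14 CPM in unstimulated WT, 12.3 and 13.6 in unstimulated SDHA-KO, 172 and 181 in stimulated WT and 79.3 and 73.96 in stimulated SDHA-KO libraries. It rose on stimulation in both genotypes and classes, by 21.7-fold in WT CD8 cells and 5.92-fold in SDHA-KO CD8 cells.

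Msmo1, the oxidase for the next methyl groups, was at 24.8 and 22.9 CPM in unstimulated WT, 25.7 and 26.5 in unstimulated SDHA-KO, 119 and 113 in stimulated WT and 22.6 and 21.00 in stimulated SDHA-KO libraries of the CD4 class. The CD8 class had Msmo1 at 14.6 and 16.1 CPM in unstimulated WT, 17.1 and 16.3 in unstimulated SDHA-KO, 110.2 and 109 in stimulated WT and 32.4 and 32.5 in stimulated SDHA-KO libraries. The genotypes did not overlap after stimulation, and differed by −2.42 ± 0.0785 in CD4 and −1.76 ± 0.0743 in CD8 (adjusted p by edgeR 2.05e-08 and 1.67e-07). Nsdhl, the dehydrogenase that acts with it, was at 7.69 and 8.98 CPM in unstimulated WT, 7.60 and 9.24 in unstimulated SDHA-KO, 25.99 and 24.6 in stimulated WT and 8.07 and 8.70 in stimulated SDHA-KO libraries of the CD4 class. Nsdhl in the CD8 class was at 7.42 and 8.47 CPM in unstimulated WT, 8.09 and 7.69 in unstimulated SDHA-KO, 22.99 and 22.2 in stimulated WT and 10.5 and 9.71 in stimulated SDHA-KO libraries. Its genotype difference was −1.59 ± 0.115 and −1.16 ± 0.105, and neither SDHA-KO class showed a called change on stimulation (−0.01 ± 0.139 and 0.36 ± 0.169). Dhcr7, the reductase that ends one route to cholesterol, was at 14.1 and 12.7 CPM in unstimulated WT, 11.1 and 12.1 in unstimulated SDHA-KO, 25.4 and 25.8 in stimulated WT and 8.13 and 7.41 in stimulated SDHA-KO libraries of the CD4 class. The levels of Dhcr7 in CD8 cells were 8.28 and 8.02 CPM in unstimulated WT, 12.6 and 10.3 in unstimulated SDHA-KO, 24.00 and 24.4 in stimulated WT and 10.1 and 8.78 in stimulated SDHA-KO libraries. In SDHA-KO CD4 cells Dhcr7 was lower after stimulation than before (−0.58 ± 0.121), the opposite of WT (0.93 ± 0.120).

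Ebp, the isomerase that shifts a double bond in the sterol ring, stood apart from the other sterol genes. It was at 46.5 and 44.03 CPM in unstimulated WT, 50.04 and 45.6 in unstimulated SDHA-KO, 67.6 and 66.1 in stimulated WT and 63.00 and 63.4 in stimulated SDHA-KO libraries of the CD4 class, and the stimulated genotypes differed by −0.08 ± 0.0716 (95% interval −0.24 to 0.08). Among CD8 libraries Ebp was at 39.7 and 44.1 CPM in unstimulated WT, 47.6 and 42.3 in unstimulated SDHA-KO, 71.2 and 69.8 in stimulated WT and 81.9 and 91.8 in stimulated SDHA-KO libraries, and was called higher in stimulated SDHA-KO (0.30 ± 0.0815, adjusted p by edgeR 0.00971). That call was not made without either stimulated WT library (0.30 and 0.27), without stimulated SDHA-KO replicate 2 (0.20), nor at equal depth (0.29), and in strict CD8 cells Ebp was called lower in SDHA-KO (−0.28). The remaining sterol genes Mvk, Pmvk, Sqle, Tm7sf2, Hsd17b7 and Sc5d were all called lower in stimulated SDHA-KO CD4 cells, by −0.75 (Hsd17b7) to −1.44 (Sqle). In CD8 cells 5 of these 6 were called lower, down to −1.01 for Tm7sf2, and Hsd17b7 was at −0.18 ± 0.136 (95% interval −0.48 to 0.12), although it was called lower in strict CD8 cells (−0.58, adjusted p by edgeR 0.0159).

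**Figure D2:**
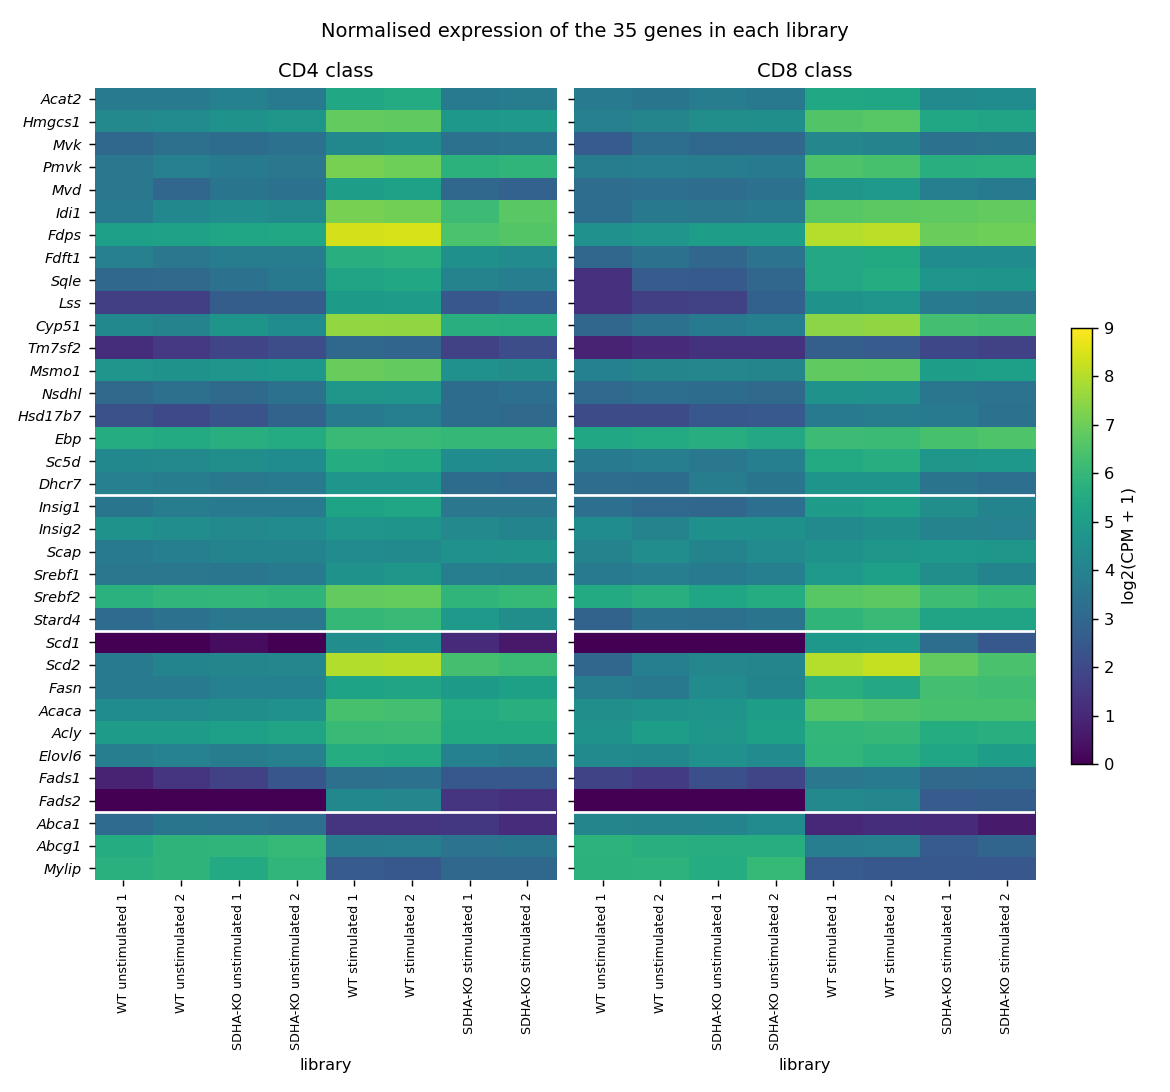
Normalised expression of the 35 genes (rows, by role) in the 8 libraries of the CD4 class and of the CD8 class (columns), coloured by log2(CPM + 1). Within a row, stimulated WT columns are brighter than unstimulated ones for most sterol and fatty acid genes, stimulated SDHA-KO columns are closer to the unstimulated ones in CD4 than in CD8 cells, and the 3 efflux genes are low in all stimulated columns.

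Of the 6 SREBP regulators, 5 were called lower in stimulated SDHA-KO cells of each class, and Scap was not. Insig1, which retains SCAP and is itself a classic SREBP target, was at 10.3 and 12.7 CPM in unstimulated WT, 11.6 and 12.2 in unstimulated SDHA-KO, 36.4 and 38.3 in stimulated WT and 10.9 and 11.1 in stimulated SDHA-KO libraries of the CD4 class. In CD8 cells, Insig1 was at 8.85 and 7.36 CPM in unstimulated WT, 6.89 and 8.87 in unstimulated SDHA-KO, 30.3 and 33.2 in stimulated WT and 20.9 and 15.7 in stimulated SDHA-KO libraries. On stimulation of SDHA-KO cells Insig1 changed by −0.11 ± 0.119 in the CD4 class (95% interval −0.38 to 0.15), which was not called, and rose by 1.22 ± 0.220 in the CD8 class, a call lost in strict CD8 cells (0.55, adjusted p by edgeR 0.0752). Insig2, the paralog known to respond little to SREBP, was at 22.8 and 20.2 CPM in unstimulated WT, 18.02 and 19.1 in unstimulated SDHA-KO, 24.6 and 24.2 in stimulated WT and 17.9 and 15.9 in stimulated SDHA-KO libraries of the CD4 class. CD8 cells had Insig2 at 19.7 and 15.4 CPM in unstimulated WT, 21.9 and 22.2 in unstimulated SDHA-KO, 18.4 and 21.2 in stimulated WT and 15.1 and 14.8 in stimulated SDHA-KO libraries. It was lower in stimulated SDHA-KO in both classes (−0.53 ± 0.0988 and −0.40 ± 0.113), and the CD8 call was lost without stimulated WT replicate 2 (−0.31), with DESeq2 and at equal depth.

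Srebf2, which encodes SREBP-2, was at 52.4 and 59.6 CPM in unstimulated WT, 61.6 and 57.1 in unstimulated SDHA-KO, 113 and 117 in stimulated WT and 58.2 and 63.9 in stimulated SDHA-KO libraries of the CD4 class. The CD8 class had Srebf2 at 43.9 and 50.4 CPM in unstimulated WT, 38.3 and 46.7 in unstimulated SDHA-KO, 101 and 106 in stimulated WT and 72.97 and 62.5 in stimulated SDHA-KO libraries. Srebf1, which encodes SREBP-1, was at 11.1 and 10.9 CPM in unstimulated WT, 10.6 and 11.8 in unstimulated SDHA-KO, 23.4 and 26.01 in stimulated WT and 13.6 and 12.8 in stimulated SDHA-KO libraries of the CD4 class. Srebf1 in the CD8 class was at 11.98 and 13.4 CPM in unstimulated WT, 11.98 and 13.9 in unstimulated SDHA-KO, 28.2 and 33.1 in stimulated WT and 20.6 and 15.8 in stimulated SDHA-KO libraries. Both were called lower in stimulated SDHA-KO cells of both classes, Srebf2 by −0.91 ± 0.0811 and −0.61 ± 0.0952 and Srebf1 by −0.90 ± 0.102 and −0.75 ± 0.130. Stard4, which moves cholesterol between membranes, was at 7.85 and 9.58 CPM in unstimulated WT, 11.3 and 11.2 in unstimulated SDHA-KO, 62.4 and 66.7 in stimulated WT and 27.7 and 21.03 in stimulated SDHA-KO libraries of the CD4 class. The levels of Stard4 in CD8 cells were 6.28 and 9.58 CPM in unstimulated WT, 8.99 and 10.1 in unstimulated SDHA-KO, 58.4 and 66.1 in stimulated WT and 37.05 and 36.9 in stimulated SDHA-KO libraries. It rose on stimulation in every group compared, by 7.38-fold in WT and 2.16-fold in SDHA-KO CD4 cells. Scap, the escort of SREBP, was at 12.02 and 13.9 CPM in unstimulated WT, 15.6 and 15.8 in unstimulated SDHA-KO, 19.3 and 18.7 in stimulated WT and 22.7 and 23.1 in stimulated SDHA-KO libraries of the CD4 class. Among CD8 libraries Scap was at 15.4 and 20.3 CPM in unstimulated WT, 15.9 and 19.5 in unstimulated SDHA-KO, 23.6 and 25.9 in stimulated WT and 26.6 and 26.04 in stimulated SDHA-KO libraries. Scap was the 1 regulator called higher in stimulated SDHA-KO CD4 cells (0.27 ± 0.0927, adjusted p by edgeR 0.0365), a call that was lost without either stimulated WT library (0.30 and 0.26) or without stimulated SDHA-KO replicate 2 (0.27), and in strict CD4 cells (0.22), at equal depth (0.28) and with DESeq2 (0.28).

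**Figure D3:**
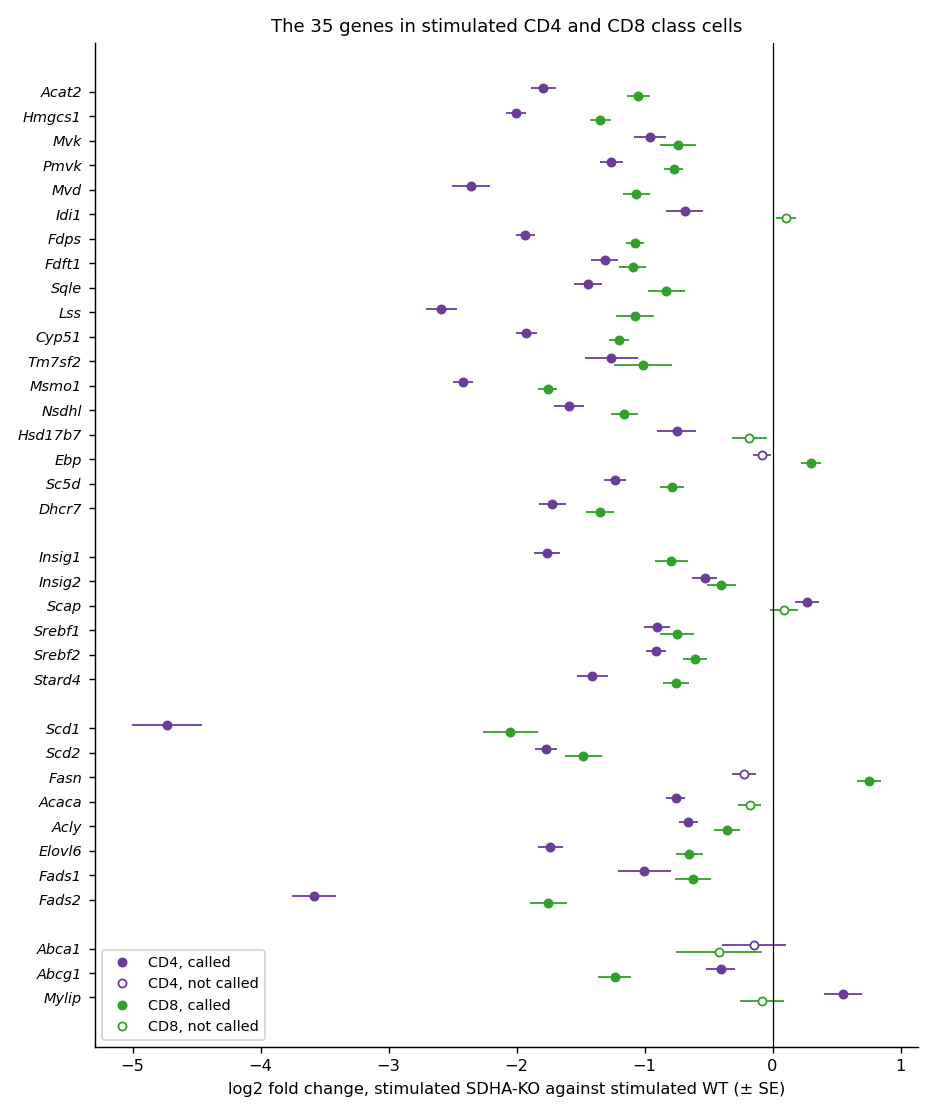
Log2 fold change ± SE between stimulated SDHA-KO and stimulated WT (x axis) for each of the 35 genes (y axis) in CD4 and CD8 cells; filled points were called at an adjusted p below 0.05 and open points were not. In the CD4 class 30 of 35 points are filled on the lower side, from −4.73 for Scd1, and in the CD8 class Fasn and Ebp are filled on the higher side.

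In fatty acid synthesis the desaturases Scd1 and Fads2 had the lowest fold changes of the 8 genes in both classes. Scd1, which makes monounsaturated fatty acids, was at 0 and 0 CPM in unstimulated WT, 0.217 and 0 in unstimulated SDHA-KO, 20.6 and 23.3 in stimulated WT and 1.14 and 0.541 in stimulated SDHA-KO libraries of the CD4 class. In CD8 cells, Scd1 was at 0 and 0 CPM in unstimulated WT, 0 and 0 in unstimulated SDHA-KO, 26.8 and 28.5 in stimulated WT and 8.50 and 4.58 in stimulated SDHA-KO libraries. With no Scd1 UMI in either unstimulated WT library, and a floor of 3 UMIs over the group, the WT rise was at least 94.7-fold in CD4 and at least 73.6-fold in CD8 cells. In SDHA-KO CD8 cells it was at least 15.2-fold, and in SDHA-KO CD4 cells, where 2 UMIs were counted before stimulation, the ratio was 8.05 with a counting interval of 2.12 to 68.1. Stimulated SDHA-KO cells were 26.6-fold below WT in CD4 and 4.14-fold below in CD8. Fads2, a desaturase of polyunsaturated fatty acids, was at 0 and 0 CPM in unstimulated WT, 0 and 0 in unstimulated SDHA-KO, 17.5 and 17.1 in stimulated WT and 1.59 and 1.30 in stimulated SDHA-KO libraries of the CD4 class. CD8 cells had Fads2 at 0 and 0 CPM in unstimulated WT, 0 and 0 in unstimulated SDHA-KO, 17.9 and 16.9 in stimulated WT and 5.07 and 5.26 in stimulated SDHA-KO libraries. Its rise was at least 74.4-fold in WT and at least 9.46-fold in SDHA-KO CD4 cells, and at least 46.3-fold and at least 11.5-fold in CD8 cells, so Fads2 and Scd1 were induced in both genotypes but reached a lower level in SDHA-KO. Scd2, the other stearoyl desaturase of T cells, was at 12.5 and 15.9 CPM in unstimulated WT, 16.5 and 16.98 in unstimulated SDHA-KO, 248 and 262 in stimulated WT and 79.8 and 69.98 in stimulated SDHA-KO libraries of the CD4 class. The CD8 class had Scd2 at 6.85 and 13.8 CPM in unstimulated WT, 17.1 and 15.97 in unstimulated SDHA-KO, 255 and 294 in stimulated WT and 113 and 83.5 in stimulated SDHA-KO libraries. It differed by −1.77 ± 0.0883 in CD4 and −1.48 ± 0.145 in CD8 cells.

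Elovl6, which lengthens palmitate, was at 13.3 and 14.8 CPM in unstimulated WT, 12.7 and 14.2 in unstimulated SDHA-KO, 46.6 and 44.6 in stimulated WT and 14.6 and 12.8 in stimulated SDHA-KO libraries of the CD4 class. Elovl6 in the CD8 class was at 18.3 and 17.4 CPM in unstimulated WT, 22.5 and 19.2 in unstimulated SDHA-KO, 59.6 and 50.9 in stimulated WT and 38.1 and 32.2 in stimulated SDHA-KO libraries. Its change on stimulation was not called in SDHA-KO CD4 cells (0.03 ± 0.118, 95% interval −0.23 to 0.28), and it rose in SDHA-KO CD8 cells (0.76 ± 0.151), but not in strict ones (0.07, adjusted p by edgeR 0.774). Fads1, the partner desaturase of Fads2, was at 0.801 and 1.65 CPM in unstimulated WT, 2.39 and 4.34 in unstimulated SDHA-KO, 8.91 and 9.31 in stimulated WT and 4.59 and 4.51 in stimulated SDHA-KO libraries of the CD4 class. The levels of Fads1 in CD8 cells were 2.57 and 2.01 CPM in unstimulated WT, 3.59 and 2.66 in unstimulated SDHA-KO, 11.2 and 11.7 in stimulated WT and 7.61 and 7.36 in stimulated SDHA-KO libraries. It was called lower in stimulated SDHA-KO in both classes (−1.001 ± 0.204 and −0.62 ± 0.140), the CD8 call being lost with DESeq2 (−0.61) and at equal depth (−0.46). The remaining enzymes build palmitate. Acaca, which makes malonyl-CoA, was at 20.03 and 19.5 CPM in unstimulated WT, 21.4 and 22.7 in unstimulated SDHA-KO, 82.4 and 78.01 in stimulated WT and 45.4 and 49.4 in stimulated SDHA-KO libraries of the CD4 class. Among CD8 libraries Acaca was at 20.8 and 23.6 CPM in unstimulated WT, 23.96 and 31.4 in unstimulated SDHA-KO, 96.8 and 88.9 in stimulated WT and 81.5 and 82.5 in stimulated SDHA-KO libraries. It was lower in SDHA-KO CD4 cells (−0.76 ± 0.0757, and −0.48 in cells with under 10% mitochondrial UMIs). In CD8 cells it was not called (−0.18 ± 0.0873, 95% interval −0.37 to 0.01), but in strict CD8 cells Acaca was called lower (−0.56, adjusted p by edgeR 0.0004).

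Acly, which makes cytosolic acetyl-CoA from citrate, was at 29.5 and 30.4 CPM in unstimulated WT, 32.8 and 36.9 in unstimulated SDHA-KO, 66.3 and 70.1 in stimulated WT and 43.3 and 43.2 in stimulated SDHA-KO libraries of the CD4 class. In CD8 cells, Acly was at 23.7 and 31.2 CPM in unstimulated WT, 26.1 and 33.4 in unstimulated SDHA-KO, 61.3 and 62.95 in stimulated WT and 47.05 and 50.1 in stimulated SDHA-KO libraries. It differed by −0.66 ± 0.0765 in CD4 and −0.36 ± 0.103 in CD8 cells, and the CD8 call was lost without stimulated WT replicate 1 (−0.39) or replicate 2 (−0.35). Fasn, fatty acid synthase itself, was at 12.3 and 11.7 CPM in unstimulated WT, 14.4 and 14.5 in unstimulated SDHA-KO, 35.9 and 37.5 in stimulated WT and 28.98 and 33.9 in stimulated SDHA-KO libraries of the CD4 class. CD8 cells had Fasn at 13.1 and 11.6 CPM in unstimulated WT, 19.2 and 15.7 in unstimulated SDHA-KO, 48.9 and 41.8 in stimulated WT and 77.5 and 75.4 in stimulated SDHA-KO libraries. In the CD4 class the genotypes differed by −0.22 ± 0.0942 (adjusted p by edgeR 0.0795), which was called lower in cells with under 10% mitochondrial UMIs (−0.35), in strict CD4 cells (−0.32) and without SDHA-KO stimulated replicate 2 (−0.33). In the CD8 class Fasn was 1.69-fold higher in stimulated SDHA-KO than in WT (0.75 ± 0.0938, adjusted p by edgeR 6.48e-05), with both SDHA-KO libraries above both WT libraries.

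The 3 genes of efflux and LXR response fell on stimulation in both genotypes. Abca1, a cholesterol exporter, was at 7.85 and 10.2 CPM in unstimulated WT, 9.77 and 8.77 in unstimulated SDHA-KO, 1.57 and 1.62 in stimulated WT and 1.72 and 1.19 in stimulated SDHA-KO libraries of the CD4 class. The CD8 class had Abca1 at 15.98 and 15.4 CPM in unstimulated WT, 15.9 and 19.2 in unstimulated SDHA-KO, 1.01 and 1.24 in stimulated WT and 1.08 and 0.557 in stimulated SDHA-KO libraries. The stimulated genotypes differed by −0.14 ± 0.251 in CD4 (95% interval −0.69 to 0.41) and −0.42 ± 0.338 in CD8 (−1.16 to 0.33), and neither was called. Abcg1, the exporter to mature lipoproteins, was at 46.3 and 57.5 CPM in unstimulated WT, 58.4 and 64.4 in unstimulated SDHA-KO, 13.03 and 13.6 in stimulated WT and 9.72 and 10.3 in stimulated SDHA-KO libraries of the CD4 class. Abcg1 in the CD8 class was at 55.9 and 50.6 CPM in unstimulated WT, 47.3 and 48.2 in unstimulated SDHA-KO, 13.3 and 14.1 in stimulated WT and 5.12 and 6.68 in stimulated SDHA-KO libraries. It was lower in SDHA-KO after stimulation. The genotypes differed by −1.23 ± 0.131 in CD8 cells and by −0.41 ± 0.115 in CD4 cells, the CD4 call being lost without stimulated WT replicate 2 (−0.36) or SDHA-KO replicate 1 (−0.35) and in cells with under 10% mitochondrial UMIs (−0.34). Mylip, a ubiquitin ligase and LXR target, was at 50.97 and 56.6 CPM in unstimulated WT, 44.8 and 59.04 in unstimulated SDHA-KO, 5.00 and 4.64 in stimulated WT and 7.12 and 6.97 in stimulated SDHA-KO libraries of the CD4 class. The levels of Mylip in CD8 cells were 54.2 and 55.9 CPM in unstimulated WT, 46.4 and 63.6 in unstimulated SDHA-KO, 4.98 and 4.51 in stimulated WT and 4.55 and 4.39 in stimulated SDHA-KO libraries. It was higher in stimulated SDHA-KO CD4 cells (0.55 ± 0.149), a call lost without stimulated WT replicate 2 (0.51), and was not called in CD8 cells (−0.08 ± 0.170, 95% interval −0.46 to 0.29). The 3 genes thus did not move together between genotypes, although all 3 fell with stimulation.

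Before stimulation few of these genes differed. In the CD4 class 1 of the 35 was called higher and 0 lower between SDHA-KO and WT by edgeR, where 0.526% and 0.575% of all genes were. In the CD8 class 0 were called in either direction, where 0.283% and 0.664% of all genes were. At an unadjusted p below 0.05 there were 9 in CD4 and 6 in CD8 cells, and DESeq2 called 1 and 0. Shares of all genes at these settings are not given, so these numbers are not a result about the list. The 1 gene called was Lss (1.24 ± 0.228, adjusted p by edgeR 0.0289), at 5.32 and 5.28 CPM in SDHA-KO against 2.24 and 2.25 in WT. Its log2 fold change was 1.21 to 1.25 when any 1 of 6 libraries was left out (each unstimulated library and each stimulated WT library), but the call was then lost, at an adjusted p of 0.0524 to 0.228 by edgeR. Leaving aside Scd1 and Fads2, which had no UMI or nearly none, 28 of 33 genes had a log2 fold change above 0 in CD4 cells and 24 of 33 in CD8 cells. The share of all genes above 0 is not given beside these counts. The median over the 35 was 0.16 in both classes, with medians over all genes of 0.03 and 0.00. Among the larger differences, Cyp51 was at 12.3 and 13.6 CPM against 6.85 and 9.14 in CD8 cells (0.67 ± 0.200), and Hmgcs1 at 23.6 and 26.1 against 17.6 and 19.5 in CD4 cells (0.42 ± 0.108), and neither was called (adjusted p by edgeR 0.154 and 0.0934). These are small beside the differences after stimulation, and in the opposite direction.

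On stimulation SDHA-KO cells raised a smaller part of the list than WT cells did. In SDHA-KO CD4 cells 16 of the 35 genes rose and 6 fell, where 36.6% and 33.2% of all genes did. The rising share was thus not far above that of all genes. The 16 were 8 sterol genes, 2 regulators (Scap and Stard4) and 6 fatty acid genes. The 6 that fell were the 3 efflux genes and the sterol genes Mvd, Msmo1 and Dhcr7, of which Msmo1 (−0.26 ± 0.0876) and Mvd (−0.58 ± 0.176) lost the call in several alternatives and without SDHA-KO unstimulated replicate 1 or SDHA-KO stimulated replicate 2, Msmo1 also without SDHA-KO unstimulated replicate 2. Without composition scaling 20 rose and 4 fell, with the median of all genes moved by 0.22. The shares of all genes without scaling are not given, so these counts cannot be set against the shares above. The median over the sterol genes was 0.14, against 2.09 in WT and beside 0.03 over all genes. In SDHA-KO CD8 cells 27 rose and 4 fell, where 37.2% and 30.9% of all genes did. The sterol median there was 1.03, against 2.38 in WT and beside 0.10 over all genes. In strict SDHA-KO CD8 cells 17 rose and 6 fell, where 34.9% and 30.4% of all genes did, with 9 sterol genes up and 2 down. The genes called as rising in the class but not in strict cells were Acat2, Hmgcs1, Hsd17b7, Ebp, Insig1, Srebf1, Acly, Elovl6, Fads1 and Mvd, of which Mvd was called lower in strict cells (−0.53).

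The genotype difference was tested directly between the states. In the CD4 class the SDHA-KO effect was lower after stimulation than before for 27 of the 35 genes and higher for 0, where 10.5% and 10.9% of all genes were so called by edgeR. Mylip, not called here (0.60 ± 0.196), was called higher in several alternatives, at 0.76 in strict CD4 cells and in cells with under 10% mitochondrial UMIs. Of the 27, 17 were sterol genes (median difference −1.77 over the 18), 4 regulators, 5 fatty acid genes and 1 efflux gene. In the CD8 class 18 were lower and 0 higher, where 10.2% and 13.5% of all genes were so called, with 13 sterol genes among them (median −1.18). The largest called differences in CD4 cells were those of Lss (−3.82 ± 0.248), Msmo1 (−2.55 ± 0.127), Mvd (−2.48 ± 0.252), Fads1 (−2.46 ± 0.441) and Hmgcs1 (−2.43 ± 0.132). Those in CD8 cells were Lss (−2.22 ± 0.486), Scd2 (−2.11 ± 0.371), Cyp51 (−1.87 ± 0.214), Msmo1 (−1.87 ± 0.164) and Dhcr7 (−1.84 ± 0.234). For Scd1 and Fads2, at or near 0 before stimulation, the estimate of the difference between states was too imprecise to give. The differences of Lss and Fads1 rest on few UMIs in unstimulated WT. Fads1 had 5 and 11 UMIs in the CD4 libraries, and Lss had 14 and 15 in CD4 and 5 and 10 in CD8. Without SDHA-KO unstimulated replicate 2 the CD8 count was 11, and the call of Lss was lost (−1.44).

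The classes were also compared within WT. Unstimulated, 2 of the 35 genes were higher in CD8 than in CD4 cells (Scap and Abca1) and 5 lower (Fdps, Sqle, Cyp51, Msmo1 and Dhcr7), where 7.98% and 7.19% of all genes were. Stimulated, 6 were higher in CD8 cells (Scap, Srebf1, Scd1, Fasn, Acaca and Elovl6) and 3 lower (Pmvk, Idi1 and Fdps), where 12.2% and 13.8% of all genes were, and the sterol median was −0.12. These counts were 0 of 35 without unstimulated WT replicate 1 and 3 without replicate 2 before stimulation, and 4 without stimulated WT replicate 1 after it. DESeq2 called 0 of the 35 higher in CD8 cells in either state, 4 lower before stimulation and 2 lower after it. Without composition scaling 1 was higher and 9 lower before stimulation, and 10 were higher and 3 lower after it. Shares of all genes are not given for these alternatives, so the counts show only a dependence on tool and scaling.

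The SDHA-KO effect after stimulation was smaller in the CD8 class than in the CD4 class. The difference of the effects (CD8 minus CD4) was called higher for 24 of the 35 genes and lower for 2, where 14.2% and 11.1% of all genes were so called. The 24 were 14 sterol genes (median difference 0.59 over the 18), 7 fatty acid genes (0.79 over the 8) and 3 regulators. Scd1 differed most (2.63 ± 0.198), followed by Fads2 (1.83 ± 0.207), Lss (1.52 ± 0.176), Mvd (1.29 ± 0.143) and Elovl6 (1.09 ± 0.115). In strict cells Scd1 (1.74) and Lss (1.18) kept the call, and Fads2 (0.09), Mvd (0.60, adjusted p by edgeR 0.076) and Elovl6 (0.23) lost it. The 2 lower were Abcg1 (−0.81 ± 0.171) and Mylip (−0.63 ± 0.164). The Mylip call was not made without stimulated WT replicate 1 (−0.63), with DESeq2 (−0.61) or in the strict class (−0.57).

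Fewer genes differed between the classes in strict cells, which leave out those with a Trdc UMI. Strict cells were also fewer, 169 and 147 of 511 and 396 cells in the stimulated SDHA-KO CD8 libraries and 736 and 709 of 844 and 834 in WT. There 9 of the 35 genes were called higher and 1 lower, where 6.29% and 8.23% of all genes were, the sterol median was 0.32 with 5 of 18 called, and the fatty acid median was 0.16 with 2 of 8. The 9 were Acat2, Pmvk, Idi1, Fdps, Lss, Insig1, Stard4, Scd1 and Fasn. Within strict CD8 cells the medians of the SDHA-KO effect were further below 0 than in the whole class, a shift that was not itself tested. There 30 of the 35 genes were lower and 1 higher in stimulated SDHA-KO, where 24.4% and 25% of all genes were (17 of 18 sterol genes lower, median −1.35, and 7 of 8 fatty acid genes lower, median −1.42), and Fasn was called higher as in the whole class (0.41 ± 0.104). Called genes whose fall was over 1.5 times as large in strict CD8 cells on the log2 scale were Mvd (−1.80), Sc5d (−1.21), Insig1 (−1.27), Srebf1 (−1.16), Scd1 (−3.11), Acly (−0.61), Elovl6 (−1.51), Fads1 (−1.34) and Fads2 (−3.70). Sterol UMIs per 10000 were 6.23 ± 0.422 in strict stimulated SDHA-KO CD8 cells, against 7.59 ± 0.0608 in the whole class (SD, n = 2).

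Split by Trdc alone, a split chosen after these values were seen, stimulated SDHA-KO CD8 cells with a Trdc UMI (302 and 222 cells) had 8.48 and 8.08 sterol UMIs per 10000 and Sdha at 74.0 and 70.9 CPM of library totals. Those without (209 and 174 cells) had 6.24 and 6.74 sterol UMIs and Sdha at 36.9 and 33.6. In WT the cells without a Trdc UMI had 14.2 sterol UMIs in both libraries, and the few with one (31 and 41 cells) had 11.4 and 14.5. Fatty acid UMIs followed the same order, at 4.89 and 4.34 with and 3.23 and 2.95 without a Trdc UMI in SDHA-KO, against 6.83 and 6.84 without in WT. Sdha in WT was at 79.98 and 88.3 CPM in cells with a Trdc UMI and 90.35 and 86.2 in those without. In the SDHA-KO libraries the cells with a Trdc UMI were thus nearer to WT in Sdha than those without. Cells of these libraries with and without a Trdc UMI were below every WT value in sterol UMIs.

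**Figure D4:**
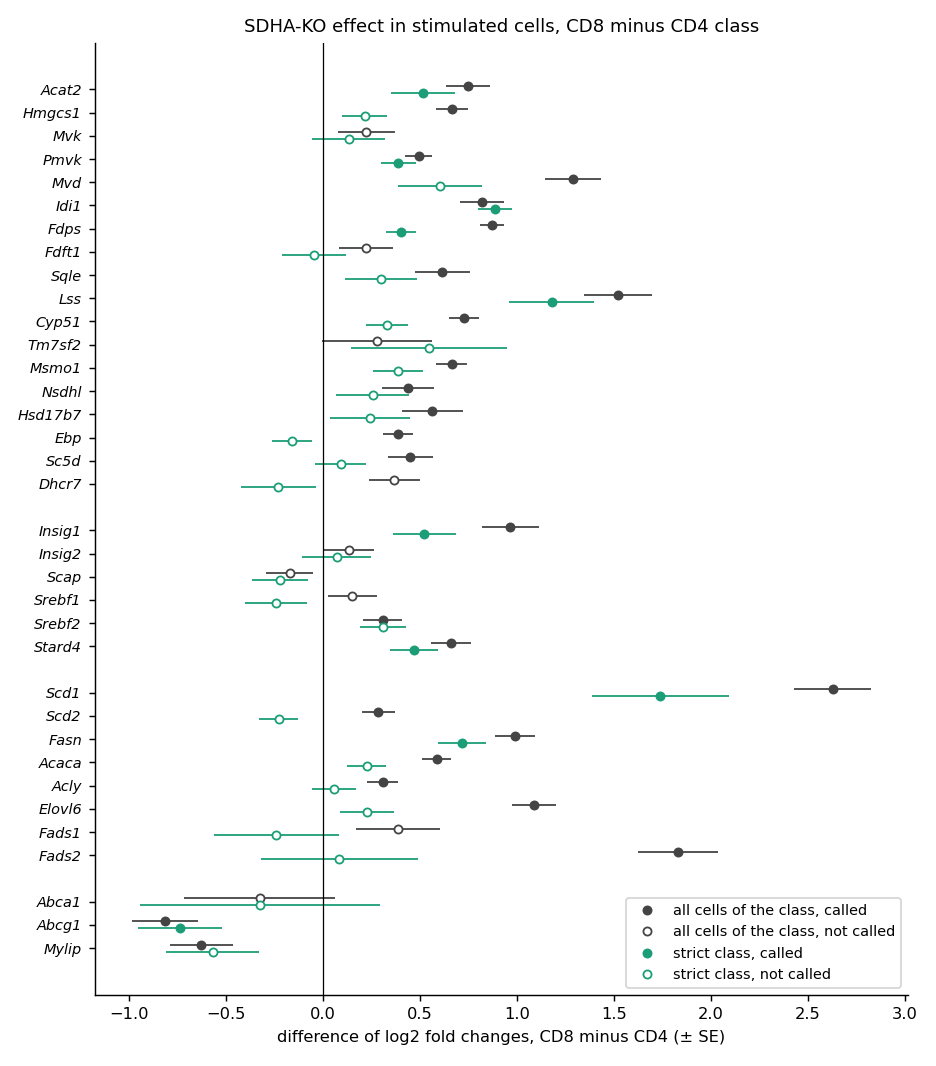
Difference of the log2 fold changes between stimulated SDHA-KO and WT, CD8 minus CD4 (x axis, ± SE), for the 35 genes (y axis), in all cells of the authors' classes and in strict cells; filled points were called. In all cells 24 genes are filled on the higher side, up to 2.63 for Scd1, and in strict cells 9 are.

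The effect was also read in single cells at equal depth. Each cell was thinned to 5000 UMIs, and cells with fewer were left out, 18 and 20 in stimulated WT CD4 libraries, 74 and 86 in stimulated SDHA-KO CD4 libraries, 2 to 6 in stimulated CD8 libraries and 5 to 99 in unstimulated ones. The median stimulated WT cell held 7 sterol UMIs in both classes and all 4 libraries, with the 10th to 90th percentiles at 3 to 13 in CD4 cells. The median SDHA-KO cell held 2 in both CD4 libraries (0 to 5.80 and 0 to 6) and 4 and 3 in the CD8 libraries, and the median unstimulated cell of every group held 1. Cells with no sterol UMI at this depth made up 0.713% and 0.739% of stimulated WT CD4 cells, 10.9% and 10.5% of SDHA-KO CD4 cells, and 35.03% to 47.3% of unstimulated cells. The lower sum in SDHA-KO CD4 cells thus went with a lower median and a lower 90th percentile. No cell type known to lack the pathway was at hand to give a background share.

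The lower level was seen in each of the authors' subsets large enough to count. In stimulated CD4 cells, 5 of 5 subsets with at least 50 cells in all 4 libraries had fewer sterol UMIs per 10000 in SDHA-KO, at 0.335 to 0.589 of WT, and the libraries of the genotypes did not overlap in any of them. In stimulated CD8 cells the same held for 2 of 2 subsets, at 0.599 to 0.618 of WT. Fatty acid UMIs stood at 0.470 to 0.592 of WT in the CD4 subsets and at 0.661 to 0.723 in the CD8 subsets. Unstimulated, SDHA-KO was above WT in 6 of 6 CD4 subsets (1.07 to 1.39 times WT, 3 without overlap) and in 3 of 3 CD8 subsets (1.30 to 1.38 times). These ratios, too, carry no composition scaling. Subsets were named by the authors from clusters of the same cells and share libraries, so they are not independent.

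Mitochondrial content, which differed between the genotypes, was examined by grouping cells by their share of mitochondrial UMIs. The bins did not match the genotypes in depth or in number of cells. In stimulated CD4 cells with under 5% mitochondrial UMIs there were 15.9 and 15.4 sterol UMIs per 10000 UMIs of nuclear genes in WT and 5.20 and 5.71 in SDHA-KO. In cells with 20% or more there were 21.0 and 20.6 in WT and 11.6 and 12.3 in SDHA-KO. The same bins held 14.4 and 13.7 against 7.57 and 7.39, and 19.4 and 21.6 against 12.7 and 15.3, in CD8 cells. Sterol sums were thus higher in cells of high mitochondrial share in both genotypes, and SDHA-KO was below WT in each of the 4 bins of both classes, for sterol and for fatty acid sums. The cells of high share were shallow (median 9573 and 9551 UMIs in WT CD4 cells, against 62087 and 63101 in the lowest bin). For SDHA-KO CD4 cells these medians were 5352 and 5798, against 27850 and 27777. The bin of 20% or more held 329 and 332 WT CD4 cells but 31 and 37 SDHA-KO CD4 cells. With only cells under 10% kept, 30 of the 35 genes were called lower in stimulated SDHA-KO CD4 cells and 28 in CD8 cells, where 16.7% and 17% of all genes were, and 2 higher in each, where 16% and 18.4% were.

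**Figure D5:**
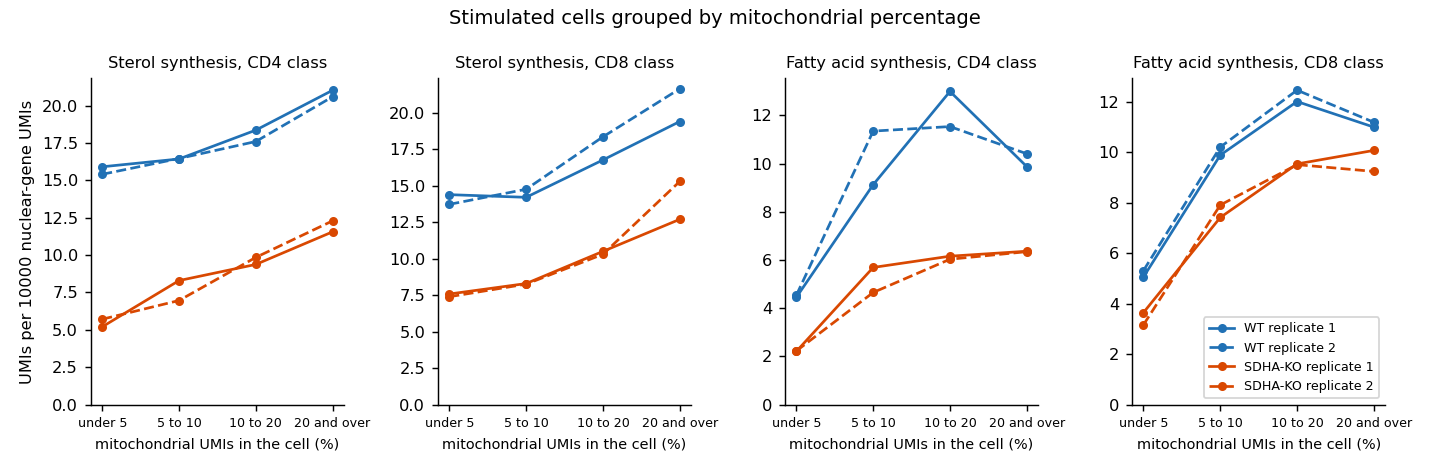
Sterol and fatty acid UMIs per 10000 UMIs of nuclear genes (y axis) in stimulated cells grouped by their percentage of mitochondrial UMIs (x axis), for each library of WT and SDHA-KO; each point is the sum over the cells of 1 library in 1 bin. SDHA-KO lines lie below WT lines in every bin of both classes, from 15.9 against 5.20 in the lowest CD4 bin of replicate 1 for sterol synthesis.

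Neighbouring genes of the pathway were counted from lists. Their medians between stimulated genotypes were nearer to 0 than those of the sterol and fatty acid synthesis genes in both classes. Of 8 genes that process SREBP or sense sterol, 2 were higher and 1 lower in stimulated SDHA-KO CD4 cells (median −0.08), where 22.7% and 20.5% of all genes were. They ran from the LXR gene Nr1h3 (−2.57 ± 0.973, not called, adjusted p by edgeR 0.0523) to the other LXR gene Nr1h2 (0.62 ± 0.0835, called). Of 12 genes of the isoprenoid branch, which draws on farnesyl diphosphate for prenyl groups, ubiquinone and dolichol, 4 were higher and 4 lower (median −0.11), beside the same shares of all genes. Of 20 tested further genes of fatty acid and glycerolipid metabolism 2 were higher and 9 lower (median −0.30), led by the acyl-CoA synthetase Acsl3 (−1.79 ± 0.139) and the phosphatidate phosphatase Lpin1 (−1.13 ± 0.0993). The LXR targets Lpcat3 and Abca7 were both lower (median −0.40, beside −0.14 for the 3 efflux genes). In CD8 cells the counts were 1 higher and 0 lower of 7 tested, 4 and 3 of 12, 2 and 8 of 21, and 0 and 2 of 2, with medians of −0.07, 0.18, −0.14 and −0.48, beside 26.8% and 23.5% of all genes. In WT CD4 cells on stimulation the further fatty acid genes rose in 12 of 20 cases and fell in 3 (median 0.89), and the isoprenoid genes rose in 5 of 12 and fell in 3 (0.31), beside 36.2% and 30.1% of all genes. Both medians were below the 2.09 and 2.45 of the sterol and fatty acid synthesis genes above.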

How the data were processed

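Splenic pan T cells were profiled by 3′ single-cell RNA-seq in 8 libraries. Per the labels' processing notes and the study's methods, the authors used bcl2fastq and Cell Ranger (versions not given in the sources used here) with mm10, merged libraries in Seurat, removed cells over 6000 (unstimulated) or 8000 (stimulated) genes and clusters without CD3 genes, and annotated clusters as CD4 or CD8. The deposited values are raw UMI counts per gene and cell, and the deposited cell table gives the percent of mitochondrial UMIs, total counts, class and subset. No doublet caller was run here, and 23 barcodes occurred in more than 1 library (at most 3 shared by any 2).

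UMIs were summed per library and class. The sums were tested with edgeR 4.0.16 (limma 3.58.1, R 4.3.3) quasi-likelihood fits over all 8 libraries with TMM scaling and filterByExpr (minimum count 10, total 15), Benjamini-Hochberg adjustment over all genes and 4 residual degrees of freedom. The study compared single cells with a Wilcoxon test, whereas libraries are the replicates here. CD8 and CD4 sums of the same libraries were compared with the library as a block (14235 genes). The scripts were tested on simulated data. Intervals are 95% and, like floors of 3 UMIs for groups at 0, cover the spread or counting error of these libraries only. Alternatives were RLE factors, no composition scaling, no filter, DESeq2 1.42.0, cells under 10% mitochondrial UMIs, totals without the 13 mitochondrial genes, strict classes, equal depth, only the libraries compared, a replicate block, and leaving out each library.

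The 35 genes, the other lists and the tests were chosen with earlier results of these data known. Values per library are given for all SREBP and efflux genes, for up to 8 sterol and 6 fatty acid genes called in either class in order of absolute fold change between the stimulated genotypes, and for members against their group's majority; for differences between states or classes the 5 largest called are named. Figures were drawn with matplotlib 3.10.9.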

Additional observations from a re-analysis of the deposited data

Results flagged for a closer look

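Effects that differed between conditions by a direct test were singled out. Between states, the effect of SDHA-KO differed for 27 of the 35 genes in the CD4 class, the 5 largest being Lss (−3.82), Msmo1 (−2.55), Mvd (−2.48), Fads1 (−2.46) and Hmgcs1 (−2.43) on the log2 scale (adjusted p by edgeR 2.1e-06 to 0.00302). In the CD8 class it differed for 18, led by Lss (−2.22), Scd2 (−2.11), Cyp51 (−1.87), Msmo1 (−1.87) and Dhcr7 (−1.84), at adjusted p of 8.88e-05 to 0.00769 by edgeR. All 10 of these differences were negative, with the SDHA-KO effect lower after stimulation than before. Those of Lss and Fads1 rest on few UMIs in unstimulated WT. Between classes, the effect after stimulation differed for 26 genes, led by Scd1 (2.63), Fads2 (1.83), Lss (1.52), Mvd (1.29) and Elovl6 (1.09), CD8 minus CD4, with CD8 cells the less affected for these 5 (adjusted p by edgeR 4.87e-06 to 7.64e-05). The share of cells with a Trdc UMI differed along with this last group, at 59.1% and 56.1% in stimulated SDHA-KO CD8 cells and 10.1% and 8.65% in SDHA-KO CD4 cells. In strict cells 10 of the 35 genes differed between classes, and of the 5 named Scd1 (1.74) and Lss (1.18) kept the call while Fads2 (0.09), Mvd (0.60, adjusted p by edgeR 0.076) and Elovl6 (0.23) lost it.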

How the results depend on the processing

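Across the named alternatives, values of single genes kept their direction and side of the threshold in 7595 of the comparisons of a gene under an alternative, lost the call in 200 and gained it in 99, and in 186 a sign changed with neither value called. In 7 the sign turned with at least 1 of the 2 values called. The value turned to the other sign and was called only in the alternative for Idi1 (−0.29, SDHA-KO against WT in stimulated CD8 cells), Cyp51 (−0.20, CD8 against CD4 in stimulated WT) and Ebp (−0.19, the same comparison) in cells under 10% mitochondrial UMIs. In strict cells, Ebp in stimulated CD8 cells (−0.28) and Mvd on stimulation of SDHA-KO CD8 cells (−0.53) were called with both signs, and Ebp (−0.16) and Scd2 (−0.23) in the difference between classes lost the call. Counts that moved by over 1.5 times were those of the difference between classes, 26 genes, which was 17 with DESeq2 and 10 in strict cells, of CD8 against CD4 in WT with DESeq2 (4 against 7 unstimulated and 2 against 9 stimulated), and of unstimulated SDHA-KO CD4 cells with no filter (2 against 1). By direction, genes rising on stimulation of SDHA-KO CD8 cells were 27, and 17 in strict cells, and genes higher in stimulated SDHA-KO were 2, and 1 in strict cells and at equal depth in both classes and with DESeq2 in CD4 cells. The cause was not tested.

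Leaving out 1 library at a time gave 29 to 32 genes called between stimulated genotypes in CD4 and 26 to 29 in CD8 cells, 0 to 1 between unstimulated CD4 genotypes, 34 in WT CD4 cells and 33 to 34 in WT CD8 cells on stimulation, 18 to 22 and 28 to 31 in SDHA-KO, 25 to 29 for the difference between states in CD4 cells and 18 to 26 for that between classes. The difference between states in CD8 cells ran from 11, without SDHA-KO unstimulated replicate 2, to 21. CD8 against CD4 ran from 0 (without unstimulated WT replicate 1; 3 without replicate 2) to 8 before stimulation and from 4 (without stimulated WT replicate 1) to 17 (without either stimulated SDHA-KO library) after it. Each such fit assumes that the lone library of a group varies like the others.

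Replicate numbers did not pair the libraries: deviations of same-numbered libraries correlated at −0.19 to 0.08 over 5445 (CD4) and 5309 (CD8) genes. With the replicate number as a block, 28 genes in place of 27 were called for the difference between states in CD4 cells, and the other counts were as without it (32, 1, 34 and 22 in CD4 cells, 29, 0, 34, 31 and 18 in CD8 cells). Depth limits genes near 0, Scd1 and Fads2 before stimulation above all.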
